A study of Mus musculus with 12 samples.

Results

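The forkhead genes are the mouse genes whose symbols run from Foxa1 to Foxs1, and 44 of them were listed in every expression table of a study of the cohesin subunit STAG3 in the male germline. They were chosen by symbol alone, and in the P7 tables by the matching Entrez ID, out of 35652 genes listed for the cultured and fetal libraries and 34896 genes listed for the P7 libraries. RNA was measured by SC3-seq, an assay that reads the 3′ ends of amplified cDNA, in 12 libraries that form 6 groups of 2. Cultured germline stem cells (GSCs) came from a first Stag3 KO line (KO1), a second Stag3 KO line (KO2) and WT cells, and all of these groups are of the line Acrosin-EGFP; beta-Actin-EGFP (AAG), so knockout and WT cells both carry its reporters. Testis germ cells of the genotype Vasa-RFPTg/0, a reporter that every in vivo group carries, came from embryonic days 16 and 17 (E16, E17) and from postnatal day 7 (P7). How the knockouts were made, how cells were gated and how many animals were pooled are not stated in the sources used here. The spread that p-values weigh is that between libraries of a group, which may be technical.

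Forkhead proteins bind DNA through a winged-helix domain and are sorted into lettered subfamilies by its sequence. FOXA proteins bind closed chromatin in early endoderm, FOXF and FOXC proteins act in mesenchyme and vessels, FOXM1 drives genes of cell division, and FOXO proteins act in the nucleus until signalling through PI3K and AKT moves them to the cytoplasm. In the mouse testis Foxo1 is known for its part in keeping spermatogonial stem cells, and Foxc2 marks a slowly dividing subset of them.

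The recognition helix, which lies in the major groove of the bound DNA, is the stretch that unites the family. Its coding sequence is shown for 6 forkhead genes that changed in Stag3 KO cells, because these genes moved in both directions. A search of the GENCODE M21 transcripts (build GRCm38) found the helix signature in the longest reading frame of 36 of the 44 genes. Foxr1, which also changed, was not among them. Each line gives 48 bases of the coding strand, 5′ to 3′, and capitals mark the 25 bases that are the same in all 6.
Foxf1: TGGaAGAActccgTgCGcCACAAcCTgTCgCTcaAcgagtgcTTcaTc
Foxc2: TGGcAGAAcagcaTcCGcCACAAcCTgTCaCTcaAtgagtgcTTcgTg
Foxo1: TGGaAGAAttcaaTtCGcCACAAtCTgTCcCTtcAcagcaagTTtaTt
Foxo3: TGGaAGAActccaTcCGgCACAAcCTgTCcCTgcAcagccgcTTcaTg
Foxo6: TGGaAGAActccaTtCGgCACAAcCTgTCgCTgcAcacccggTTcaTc
Foxm1: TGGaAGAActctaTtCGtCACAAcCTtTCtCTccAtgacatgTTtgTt
Foxo3 and Foxo6 shared 43 of these 48 bases, although Foxo3 fell and Foxo6 rose in the knockout cells. Foxf1 and Foxc2, which also moved in opposite directions, shared 39. Foxo1 and Foxo3, which both fell, shared 37.

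The RefSeq promoter table for GRCm38.p6 held 33 windows of 300 bases, each running from 250 bases before to 50 bases after an annotated start, for 28 of the 44 genes. The forkhead motifs searched were TGTTTAC with its reverse complement GTAAACA, and TGTTTGC with its reverse complement GCAAACA, counted apart, so that a window may hold both. The first pair was present in 3.65% of all 32851 windows and in 1 forkhead window, that of Foxa1. The second pair was present in 5.07% of all windows and in 2 forkhead windows, of Foxj3 and Foxp1. Forkhead windows held a median of 22 CpG dinucleotides, against a median of 7 over all windows. The windows of Foxa1, of Foxa2 (the outermost of its 3) and of Foxo1 are shown, since these genes set the contrast between fetal cells, knockout GSCs and P7 cells below. Their positions are chr12:57546062-57546361 on the minus strand, chr2:148046920-148047219 on the minus strand and chr3:52268087-52268386 on the plus strand, with 26, 12 and 31 CpG. Each is printed 5′ to 3′ along its gene's strand, and capitals mark a forkhead motif.
Foxa1: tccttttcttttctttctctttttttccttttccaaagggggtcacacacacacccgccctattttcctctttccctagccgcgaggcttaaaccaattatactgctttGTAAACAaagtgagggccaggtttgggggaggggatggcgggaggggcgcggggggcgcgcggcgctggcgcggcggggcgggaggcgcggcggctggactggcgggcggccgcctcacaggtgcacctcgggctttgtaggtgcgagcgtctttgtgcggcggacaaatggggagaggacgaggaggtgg
Foxa2: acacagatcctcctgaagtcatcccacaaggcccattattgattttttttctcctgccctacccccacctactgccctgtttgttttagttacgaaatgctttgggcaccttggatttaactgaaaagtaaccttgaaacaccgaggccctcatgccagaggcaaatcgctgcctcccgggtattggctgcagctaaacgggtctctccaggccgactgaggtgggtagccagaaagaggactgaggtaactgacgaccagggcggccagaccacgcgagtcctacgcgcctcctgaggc
Foxo1: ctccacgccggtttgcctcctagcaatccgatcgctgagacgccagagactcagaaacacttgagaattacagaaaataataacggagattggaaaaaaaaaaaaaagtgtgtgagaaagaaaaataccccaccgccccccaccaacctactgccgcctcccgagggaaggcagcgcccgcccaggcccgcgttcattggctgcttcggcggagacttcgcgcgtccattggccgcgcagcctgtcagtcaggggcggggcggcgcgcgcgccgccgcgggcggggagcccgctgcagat
A match is a description of letters, and the absence of one says only that these letters are not in the window.

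Depth and cell identity were examined before any comparison. Counts of non-mitochondrial genes ran from 2864246 to 4013033 in GSC libraries, from 1730300 to 2840925 in fetal libraries and from 3040988 to 3235274 at P7. Levels are given as reads per 1000000 of those counts (RPM), and since 3′ ends are read they are compared between libraries, not between genes. A count of 0 in a library allows a level of up to 0.748 to 1.73 RPM (3 counts, counting error only). Germ cell markers summed to 3589 to 5292 RPM in all 12 libraries, and Mael was among the leading 3 in every group. Stag3 itself had 295 and 304 RPM in KO1, 137 and 152 RPM in KO2, and 385 and 420 RPM in WT GSCs. It was therefore lower but present in both lines, and whether these 3′ reads lie outside the altered part of the gene is not stated, so they do not check the labels.

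Of the 44 genes, 20 averaged at least 10 RPM in some group, 18 peaked between 1 and 10 RPM, and 6 stayed under 1 RPM in every group. Foxb2 and Foxl2 had no count in any library. Foxl2, the factor that maintains granulosa cell identity in the ovary, is thus below detection in these male samples at a limit of 3 counts a library. The 18 genes that stayed under 10 RPM and passed no test below had group means of at most 5.74 RPM (Foxp4 at E17) and include Foxa3, Foxb1, Foxc1, Foxd1, Foxd2, Foxd4, Foxe1, Foxi2, Foxj1, Foxl1, Foxn1, Foxo4, Foxq1, Foxr2 and Foxs1. Summed over the family, forkhead transcripts reached 473 and 420 RPM at E16, 555 and 614 RPM at E17, 1290 and 1251 RPM at P7, and 652 to 709 RPM in the 6 GSC libraries.

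**Figure D1:**
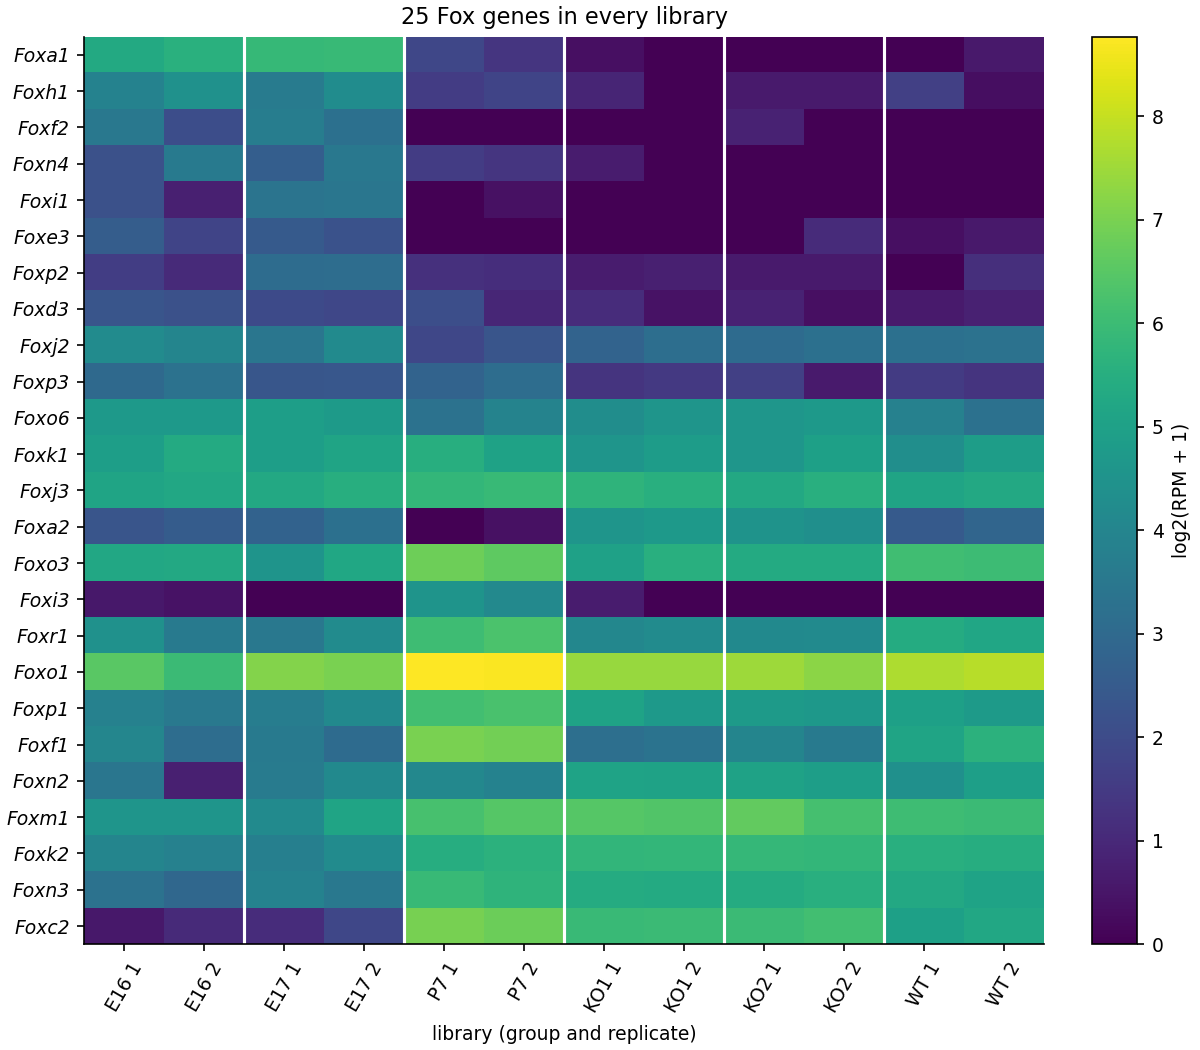
Level of 25 forkhead genes, as log2(RPM + 1), in each of the 12 libraries, with columns for E16, E17, P7, KO1, KO2 and WT and rows ordered by the mean fetal level minus the mean of all other libraries. Foxa1 and Foxh1 are above 10 RPM in all 4 fetal libraries and in no other library, Foxo1 is the highest row in every library, and Foxc2, Foxf1 and Foxi3 peak at P7.

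The first comparison asked which forkhead genes differ in cultured GSCs when Stag3 is knocked out. Foxf1, Foxr1, Foxo3 and Foxo1 fell and Foxa2, Foxo6, Foxc2 and Foxm1 rose in the knockout cells, taken as the mean of both lines against WT. These are 8 of the 16 forkhead genes with enough counts to test, by edgeR's quasi-likelihood test at a Benjamini-Hochberg adjusted p under 0.05 over all genes. Of all 11890 genes tested, 19.2% passed the same threshold, 8.64% higher and 10.6% lower. The 16 had a median log2 fold change of 0.14, against 0.00 over all genes. A further 28 forkhead genes were not tested, and those tested are not a sample of the family, since a gene high in 1 group alone passes the filter. KO1 alone gave 7 of 16, 3 higher and 4 lower, where 13.6% of all genes passed, 6.24% higher and 7.4% lower. KO2 alone gave 8 of 16, 4 higher and 4 lower, where 15.6% of all genes passed, 7.19% higher and 8.45% lower. The gene without a call in KO1 was Foxm1.

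Foxf1, a mesenchymal factor downstream of hedgehog signals, showed the largest fall. It had 8.24 and 9.08 RPM in KO1 and 14.9 and 11.4 RPM in KO2, against 34.0 and 48.1 RPM in WT. All 4 knockout libraries lay below both WT libraries. The log2 fold change was -2.0 ± 0.20 (SE) for the mean of both lines, with an edgeR adjusted p of 1.48e-14.

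Foxa2, a pioneer factor of endoderm and the node, showed the largest rise. It had 22.7 and 25.8 RPM in KO1 and 21.9 and 19.4 RPM in KO2, against 4.63 and 6.23 RPM in WT, with no overlap. Its log2 fold change was 1.98 ± 0.27 (SE), with an edgeR adjusted p of 4.56e-09.

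Foxc2, the marker of slowly dividing spermatogonial stem cells, had 60.3 and 61.4 RPM in KO1 and 62.4 and 67.4 RPM in KO2, against 30.5 and 37.6 RPM in WT. The knockout values lay close together and above both WT values, and the log2 fold change was 0.83 ± 0.14 (SE, edgeR adjusted p 2.48e-06). Foxc2 moved opposite to Foxf1, its neighbour on chromosome 8.

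Among the FOXO genes, Foxo1 and Foxo3 fell and Foxo6 rose. Foxo1 had 169 and 171 RPM in KO1 and 178 and 151 RPM in KO2, against 205 and 224 RPM in WT. The groups did not overlap, but the change was the smallest in size among the 4 that fell, at -0.41 ± 0.08 (log2, SE, edgeR adjusted p 0.000104). Foxo3, which holds primordial follicles dormant in the mouse ovary, had 31.2 and 45.0 RPM in KO1 and 39.7 and 40.2 RPM in KO2, against 67.0 and 63.5 RPM in WT. Its log2 fold change was -0.80 ± 0.14 (SE, edgeR adjusted p 2.9e-06). Foxo6, the brain-enriched member, had 18.5 and 22.7 RPM in KO1 and 23.5 and 25 RPM in KO2, against 13.3 and 8.72 RPM in WT, a log2 fold change of 0.97 ± 0.23 (SE, edgeR adjusted p 0.001). The Foxo6 call ended without WT replicate 2 (log2 fold change 0.65, adjusted p 0.0791). Foxo4 peaked at 1.23 RPM and was not tested.

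Foxr1 had 15.6 and 17.8 RPM in KO1 and 16.7 and 17.5 RPM in KO2, against 40.6 and 35.4 RPM in WT. All knockout values lay below both WT values, at -1.22 ± 0.18 (log2, SE, edgeR adjusted p 7.96e-08). Foxm1, the driver of mitotic genes, had 86.2 and 82.0 RPM in KO1 and 100.4 and 71.9 RPM in KO2, against 65.6 and 62.0 RPM in WT. Its log2 fold change of 0.37 ± 0.12 (SE, edgeR adjusted p 0.0226) was the least secure of the 8, with adjusted p = 0.224 by DESeq2, 0.146 without WT replicate 2, 0.0687 without KO1 replicate 1 and 0.309 without KO2 replicate 1.

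**Figure D2:**
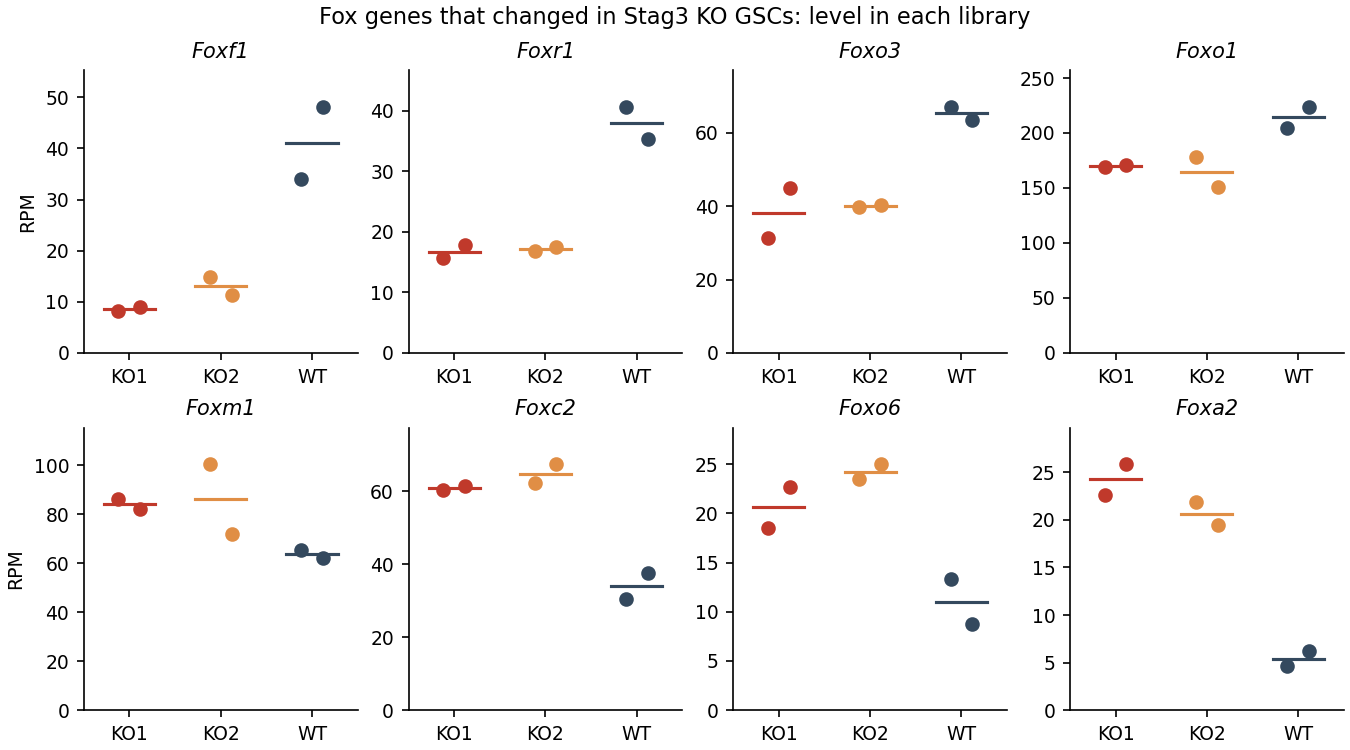
Level in RPM of the 8 forkhead genes that changed, in KO1, KO2 and WT GSCs. Points are the 2 libraries of a group and lines are their mean; all knockout points of Foxf1, Foxr1, Foxo3 and Foxo1 lie below both WT points, and all those of Foxm1, Foxc2, Foxo6 and Foxa2 lie above.

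The other 8 tested genes did not pass the threshold. Foxk1 and Foxk2, repressors tied to nutrient signalling, had log2 fold changes of 0.09 ± 0.19 and 0.25 ± 0.14 (SE). Foxn2 and Foxn3 had 0.29 ± 0.18 and 0.20 ± 0.15, Foxj2 and Foxj3 had -0.30 ± 0.32 and 0.26 ± 0.15, and Foxp1 and Foxp4 had -0.12 ± 0.18 and -0.91 ± 0.46. KO1 set against KO2 gave no call among the 16 by edgeR or by DESeq2, where 0.833% of all genes differed. Foxf1 was the one forkhead gene at an unadjusted p under 0.05 in that comparison, with a log2 difference of -0.60 ± 0.29 (SE, unadjusted p 0.0409, edgeR adjusted p 0.498).

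**Figure D3:**
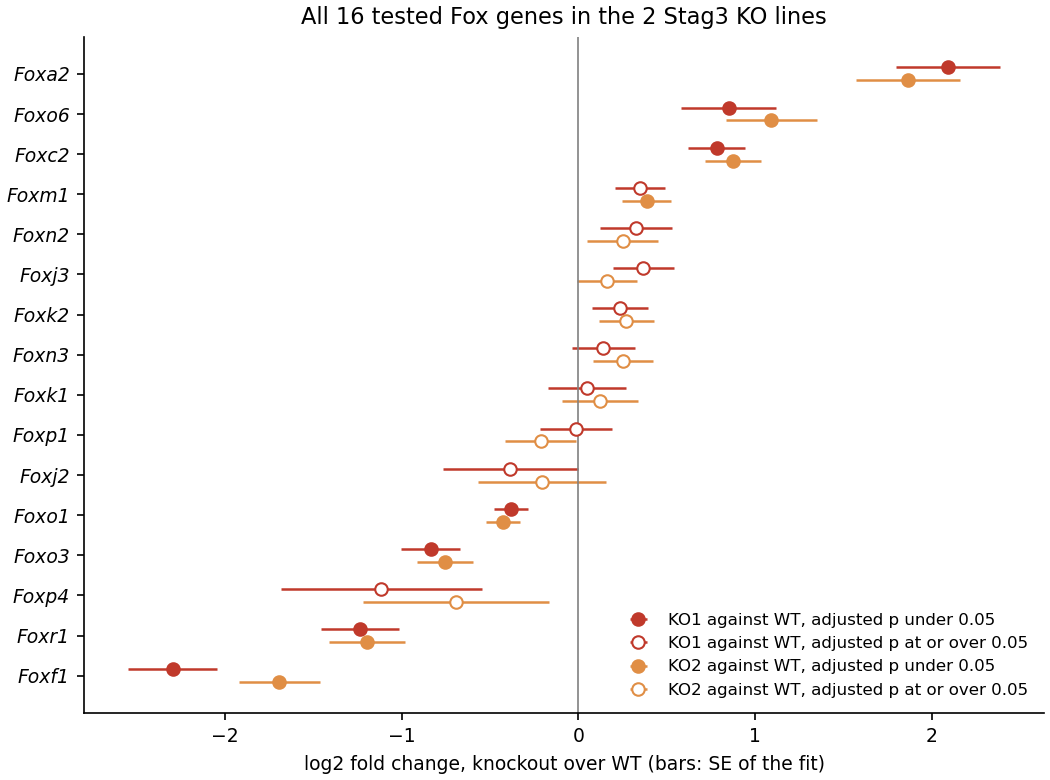
Log2 fold change and its SE for all 16 tested forkhead genes in KO1 against WT and in KO2 against WT, with filled points where the edgeR adjusted p is under 0.05. Foxf1 lies at -2.30 in KO1 and -1.69 in KO2, and Foxa2 at 2.09 in KO1 and 1.87 in KO2. Both lines point the same way for each of the 8 genes that changed. These genes were called on the mean of both lines, which share the WT libraries, so this agreement is partly built in.

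Foxf1 and Foxc2 lie close together on chromosome 8 and moved in opposite directions in knockout cells. On GRCm38.p6 Foxf1 spans chr8:121084386-121088154, Foxc2 spans chr8:121116171-121118895 and Foxl1 spans chr8:121127685-121130644, all on the plus strand. The starts of Foxf1 and Foxc2 are 31.8 kb apart and those of Foxc2 and Foxl1 11.5 kb apart. Foxl1 had 0.589 and 0.698 RPM in KO1 and 0.81 and 1.39 RPM in KO2, against 0 in both WT libraries, too low to test. The mean of both lines is at least 1.11-fold higher than WT set at a floor of 3 counts a library. Fendrr, the long noncoding RNA transcribed away from Foxf1, had 0.883 and 0 RPM in KO1 and 1.08 and 3.05 RPM in KO2, against 4.08 and 1.5 RPM in WT. Its log2 fold change of -1.48 ± 0.70 (SE, edgeR adjusted p 0.13) did not pass. Within 500 kb of the start of Foxf1 the RefSeq table lists 32 other genes, of which 29 are in the expression tables and 8 were tested. Foxc2 was the one that rose and 2 fell, where 19.2% of all genes passed, 8.64% higher and 10.6% lower. Irf8, a factor of myeloid cells, and Fbxo31, a ubiquitin ligase component, fell by 0.55 and 0.41 on the log2 scale (SE 0.17 and 0.12, edgeR adjusted p 0.0159 and 0.0073). In single lines Irf8 passed in KO1 (log2 fold change -0.75, edgeR adjusted p 0.00792) but not in KO2 (-0.35, 0.243), and Fbxo31 passed in both. Mthfsd, which lies between Foxf1 and Foxc2, had a log2 fold change of 0.38 ± 0.33 (SE) and no call. The window of the same width around Foxa2, at chr2:148042877-148046969 on the minus strand, lists 14 other genes, of which 11 are in the tables and 1 was tested, Cd93. It had no call for the mean of both lines (log2 fold change 1.10, edgeR adjusted p 0.101) or in KO1 (0.60, 0.555). In KO2 alone Cd93 was higher (1.60, edgeR adjusted p 0.0221).

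**Figure D4:**
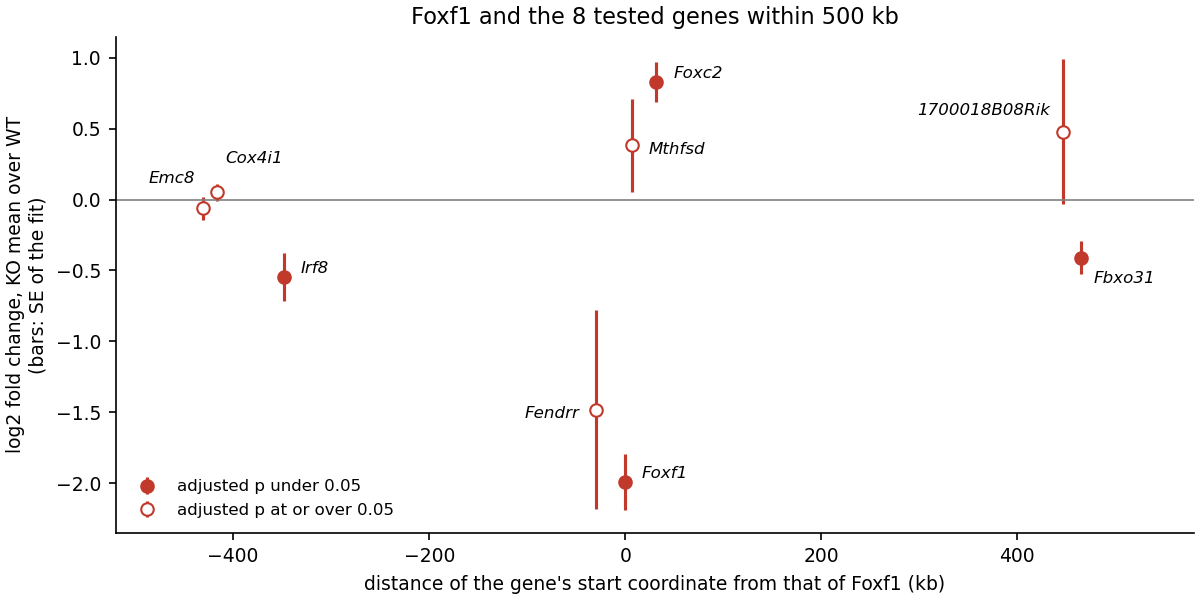
Log2 fold change, mean of both knockout lines over WT, of Foxf1 and the 8 tested genes within 500 kb, by distance from the start coordinate of Foxf1 in kb, with SE bars and filled points where the edgeR adjusted p is under 0.05. Foxf1 at -2.0 and Foxc2 at 0.83 are the extremes of the window, and Emc8 and Cox4i1 lie near 0.

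Genes known to act with or below forkhead factors were read from lists of textbook members. Of 34 tested genes of the pathway that controls FOXO proteins, 2 rose and 4 fell, with a median log2 fold change of -0.02. That is 17.6%, close to the 19.2% of all genes. A list member, like a forkhead gene, was tested where it passed the filter on low counts, which a gene high in 1 group alone does. Sgk1, a kinase that phosphorylates FOXO proteins, averaged 19.1 RPM in knockout and 54.0 RPM in WT cells (log2 -1.58 ± 0.16, SE, edgeR adjusted p 1.19e-13). Pik3cd and Mtor fell by 0.78 and 0.57 on the log2 scale and Akt1 by 0.31, while Sgk3, a relative of Sgk1, rose by 0.38. Of 28 tested FOXO targets, 4 rose and 10 fell, or 50%, with a median of -0.38, against 0.00 over all genes. Fbxo32, a ubiquitin ligase of muscle wasting, averaged 12.3 RPM in knockout and 39.1 RPM in WT cells (log2 -1.72 ± 0.19, SE). Bnip3, a mitophagy receptor, fell by 1.2 and Txnip, an inhibitor of thioredoxin, by 0.91. The 4 that rose were Ccnd1, Ccnd2, Ret and Rbl2, of which Rbl2 averaged 2.91 RPM in knockout and 0.51 RPM in WT cells.

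Of 26 tested FOXM1 targets, 8 rose and 1 fell (Cenpa), or 34.6% against 19.2% of all genes, with a median of 0.03. With spike-in scaling 4 rose and 1 fell, where 12.2% of all genes passed. Mki67, a proliferation antigen, averaged 200.5 RPM in knockout and 119.6 RPM in WT cells (log2 0.69 ± 0.09, SE), and Birc5 and Cdk1 both rose by 0.55. Of 26 listed endoderm genes known to act around FOXA factors 8 were tested, of which Lhx1, Mixl1 and T rose and Afp fell. T and Mixl1 were under 1 RPM in WT and reached the filter through their knockout levels, so the count says nothing about the list. T, the Brachyury gene of early mesoderm, averaged 5.84 RPM in knockout and 0.374 RPM in WT cells (log2 3.71 ± 0.72, SE, edgeR adjusted p 3.83e-05). Lhx1 averaged 14.9 RPM in knockout and 3.41 RPM in WT cells (log2 2.07 ± 0.33, SE), and Mixl1 3.43 RPM in knockout and 0.759 RPM in WT cells. Of 10 tested hedgehog genes, Gas1 rose and Boc and Ptch1 fell, or 30% against 19.2% of all genes, with a median of -0.12. Ptch1, the hedgehog receptor and a target of the pathway, averaged 15.3 RPM in knockout and 30.3 RPM in WT cells (log2 -1.04 ± 0.20, SE).

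Markers of cell identity moved in the same comparison. Of 15 germ cell markers, 10 fell and Dppa4 rose, or 73.3% against 19.2% of all genes, with a median of -0.35. Nanos3, Zbtb16 and Sall4, genes of undifferentiated spermatogonia, fell by 1.27, 0.89 and 0.83 on the log2 scale. The 13 Sertoli markers summed to 63.9 and 63.9 RPM in KO1 and 43.7 and 49.4 RPM in KO2, against 33.2 and 36.6 RPM in WT, with Amh, Gata1, Fshr and Nr5a1 at 0 in all 3 groups. Aard led the Sertoli markers at a mean of 28.3 RPM in KO1 and 24.8 RPM in KO2, while Wt1 led in WT at 14.4 RPM. The 12 fibroblast and feeder markers summed to 312 to 330 RPM in KO1 and 301 to 327 RPM in KO2, against 342 to 354 RPM in WT. Fn1, the leading fibroblast marker, went against that sum, at a mean of 188 RPM in KO1, 180 RPM in KO2 and 162 RPM in WT. Endothelial markers summed to 40.0 and 45.7 RPM in KO1 and 36.7 and 29.1 RPM in KO2, against 29.9 and 27.2 RPM in WT. Most of this was Egfl7, which averaged 34.3 RPM in KO1, 27.0 RPM in KO2 and 22.7 RPM in WT. Peritubular myoid markers summed to 12.7 and 12.2 RPM in KO1 and 4.32 and 3.33 RPM in KO2, against 9.53 and 5.98 RPM in WT. The part of these markers in the forkhead changes was not tested.

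In vivo, the next comparison followed the genes in time. At E17, against E16, no forkhead gene of 26 tested changed by edgeR, where 6.6% of all genes did, 1.64% higher and 4.96% lower. None changed by DESeq2. That test gave an adjusted p for 6880 genes, against 14776 with edgeR, and a forkhead gene without one could not pass. An unadjusted edgeR p under 0.05 was found for 6 of the 26 and for 3303 of all 14776 genes tested, which are similar shares. Foxo1 had 140 and 128 RPM at E17 and 90.9 and 62.3 RPM at E16, a log2 fold change of 0.49 ± 0.16 (SE, edgeR adjusted p 0.0818). Foxo1 passed with no filter (adjusted p 0.0424), the replicate block (0.0383), the fit of all 12 libraries (0.0204), library totals (0.0105) and without E16 replicate 1 (0.000172), so its call depends on the setting. The E16 replicates differed from each other more than those of any other group. Without E16 replicate 1 more forkhead genes passed, and so did a larger share of all genes.

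By P7 most of the tested forkhead genes had changed. Against E17, 22 of 26 tested genes changed, 11 higher and 11 lower, where 67.9% of all genes changed, 30.2% higher and 37.8% lower. These directions are relative to the counts of the other genes (TMM scaling). The P7 libraries held 5.85% and 4.69% ERCC spike-in reads and the E17 libraries 0.194% and 0.231%. Scaling to the spike-ins put the median of all genes at -4.81 (log2, -0.13 with the main scaling). It put 9 of the 11 higher genes below 0, all but Foxc2 and Foxi3. Of these 9, Foxf1 was not called (-0.80, edgeR adjusted p 0.0875). P7 was deposited with its own gene list, so age and preparation cannot be told apart.

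Foxi3, a factor of ear and tooth development, had 22.4 and 16.4 RPM at P7 and 0 in both E17 libraries, which is at least 11.7-fold higher over the floor of 3 counts a library. At E16 it had 0.497 and 0.352 RPM, or 1 count in each library. It was at 0 in both WT GSC libraries and in 3 of the 4 knockout libraries.

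Foxc2 had 0.497 and 1.06 RPM at E16, 1.16 and 2.62 RPM at E17 and 125 and 110 RPM at P7. The P7 values lay far above every fetal value, at a log2 fold change over E17 of 6.05 ± 0.34 (SE, edgeR adjusted p 2.58e-09). With spike-in scaling it was still higher, at 1.42. Foxf1 had 15.4 and 7.74 RPM at E16, 11 and 7.33 RPM at E17 and 127 and 117 RPM at P7, at 3.90 ± 0.28 (log2, SE, edgeR adjusted p 2.71e-08), against -0.80 with spike-in scaling. In vivo, then, both were higher at P7 than at E17 by TMM scaling, whereas in the knockout GSCs they moved apart. Fendrr was higher at P7 too, with 32.6 and 29.1 RPM at P7 and 9.82 and 9.42 RPM at E17 (log2 1.83 ± 0.39, SE). Foxl1 had 0.987 and 3.40 RPM at P7, and 0 and 0.523 RPM at E17.

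Foxo1 reached 434 and 417 RPM at P7, against 140 and 128 RPM at E17, at 1.83 ± 0.15 (log2, SE, edgeR adjusted p 8.09e-08). Foxo3 had 113 and 96.1 RPM at P7 and 22.0 and 36.6 RPM at E17, at 1.98 ± 0.23 (log2, SE). Foxo6 went the other way, with 8.88 and 14.2 RPM at P7 and 29.5 and 26.2 RPM at E17, at -1.10 ± 0.31 (log2, SE, edgeR adjusted p 0.00598). With spike-in scaling Foxo1 and Foxo3 lay at -2.87 and -2.69, so the opposite signs of the FOXO genes do not hold under it. The Foxo6 call ended without E17 replicate 1 (adjusted p 0.0565) and without P7 replicate 1 (log2 fold change -0.77, adjusted p 0.0819). The 35 tested genes of the FOXO control pathway included 22 higher and 4 lower, or 74.3% against 67.9% of all genes, with a median of 0.73, and Igf1r averaged 139 RPM at P7 and 26.4 RPM at E17. Of 30 tested FOXO targets, 15 were higher and 3 lower, or 60%, with a median of 0.65. Both shares are near that of all genes. With spike-in scaling none was higher, and all 35 pathway genes and 29 of the 30 targets were lower.

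Foxm1 had 73.3 and 87.5 RPM at P7 and 17.3 and 34.0 RPM at E17, at 1.79 ± 0.26 (log2, SE, edgeR adjusted p 2.94e-05). Of its 25 tested targets 24 were higher at P7 and 1 lower, with a median of 1.63. Of all genes 67.9% changed, 30.2% higher and 37.8% lower. Spike-in scaling put all 25 targets lower, where 98.3% of all genes passed. Aurkb, Birc5 and Mki67 led them, at log2 fold changes of 3.45, 3.34 and 2.94. Foxm1 itself lay at -2.84 with spike-in scaling.

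Foxr1 had 64.5 and 76.3 RPM at P7 and 10.4 and 17.8 RPM at E17, and Foxp1, a repressor in many tissues, had 68.7 and 74.8 RPM at P7 and 12.1 and 16.7 RPM at E17. Both rose by 2.46 on the log2 scale (SE 0.30 for Foxr1 and 0.25 for Foxp1). Foxn3 had 58.9 and 50.7 RPM at P7 and 13.9 and 10.5 RPM at E17, and Foxk2 had 42.7 and 48.5 RPM at P7 and 12.7 and 17.8 RPM at E17. The smallest rise was that of Foxj3, a factor needed for meiosis in mouse testis, with 54.9 and 58.7 RPM at P7 and 38.1 and 44.5 RPM at E17 (log2 0.61 ± 0.21, SE, edgeR adjusted p 0.0165). The Foxj3 call ended with library totals (adjusted p 0.0681), DESeq2 (0.0948), without E17 replicate 1 (0.132) and without P7 replicate 2 (0.087). None of these 5 genes kept its direction with spike-in scaling.

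The 11 genes lower at P7 included several known from organs other than the testis. Foxa1, a pioneer factor of endoderm, had 38.8 and 46.1 RPM at E16, 57.2 and 59.7 RPM at E17 and 2.63 and 1.55 RPM at P7. The P7 values were far below all fetal values, at a log2 fold change over E17 of -4.63 ± 0.34 (SE, edgeR adjusted p 3.29e-08). Foxh1, which carries Nodal signals with SMAD proteins, had 1.97 and 2.47 RPM at P7 and 11.6 and 18.3 RPM at E17, at -2.57 ± 0.50 (log2, SE).

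Foxf2, the other FOXF gene, had 0 in both P7 libraries and 12.1 and 8.37 RPM at E17, at least 10.7-fold lower. By TMM scaling it thus moved opposite to Foxf1. With spike-in scaling both lay below 0, Foxf2 at -11.3 and Foxf1 at -0.80 without a call. Foxe3, a lens factor, had 0 in both P7 libraries and 4.62 and 3.66 RPM at E17, at least 4.33-fold lower. Foxi1, a factor of ion-transporting epithelia, had 0 and 0.309 RPM (1 count) at P7 and 9.25 and 9.94 RPM at E17, a ratio of E17 to P7 of 60.3 with a 95% counting interval of 10.1 to 2450. Foxa2 had 0 and 0.309 RPM (1 count) at P7 and 5.78 and 8.37 RPM at E17, a ratio of E17 to P7 of 44.8 with an interval of 7.36 to 1837. Foxj2 had 2.63 and 4.02 RPM at P7 and 9.82 and 17.3 RPM at E17. Foxn4, a retinal factor, had 1.97 and 1.55 RPM at P7 and 5.2 and 10.5 RPM at E17, and Foxp2, known from the brain, had 1.32 and 1.24 RPM at P7 and 7.51 and 7.85 RPM at E17. Foxn4, Foxp2 and Foxj2 rest on few counts, and without E17 replicate 2 none of the 3 passed (adjusted p 0.273, 0.129 and 0.0861). Foxn4 and Foxp2 did not pass by DESeq2 either (adjusted p 0.0826 and 0.0683), nor without either P7 library.

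Of 18 tested endoderm genes 2 were higher and 11 lower at P7, or 72.2% against 67.9% of all genes, with a median of -2.1. With spike-in scaling 17 were lower and none higher. Krt18, a keratin of simple epithelia, averaged 2.44 RPM at P7 and 150.2 RPM at E17, whereas Lhx1 averaged 56.3 RPM at P7 and 1.34 RPM at E17. As sums over their lists, markers of somatic cells were lower at P7 too. Leydig markers summed to 8.55 and 2.78 RPM at P7 and 46.2 and 41.9 RPM at E17, peritubular myoid markers to 12.8 and 21.9 RPM at P7 and 162 and 167 RPM at E17, and endothelial markers to 38.8 and 38.0 RPM at P7 and 229 and 210 RPM at E17. Sertoli markers summed to 69.1 and 104 RPM at P7 and 169 and 177 RPM at E17, with Amh at 0 in both groups, and fibroblast markers to 485 and 457 RPM at P7 and 673 and 659 RPM at E17. Fn1, the leading fibroblast marker, went the other way, at a mean of 243 RPM at P7 and 181 RPM at E17. Insl3 was at 0 at E17. The part of these cells in the forkhead values was not tested, and in bulk libraries fewer cells of a type and less RNA per cell cannot be told apart.

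**Figure D5:**
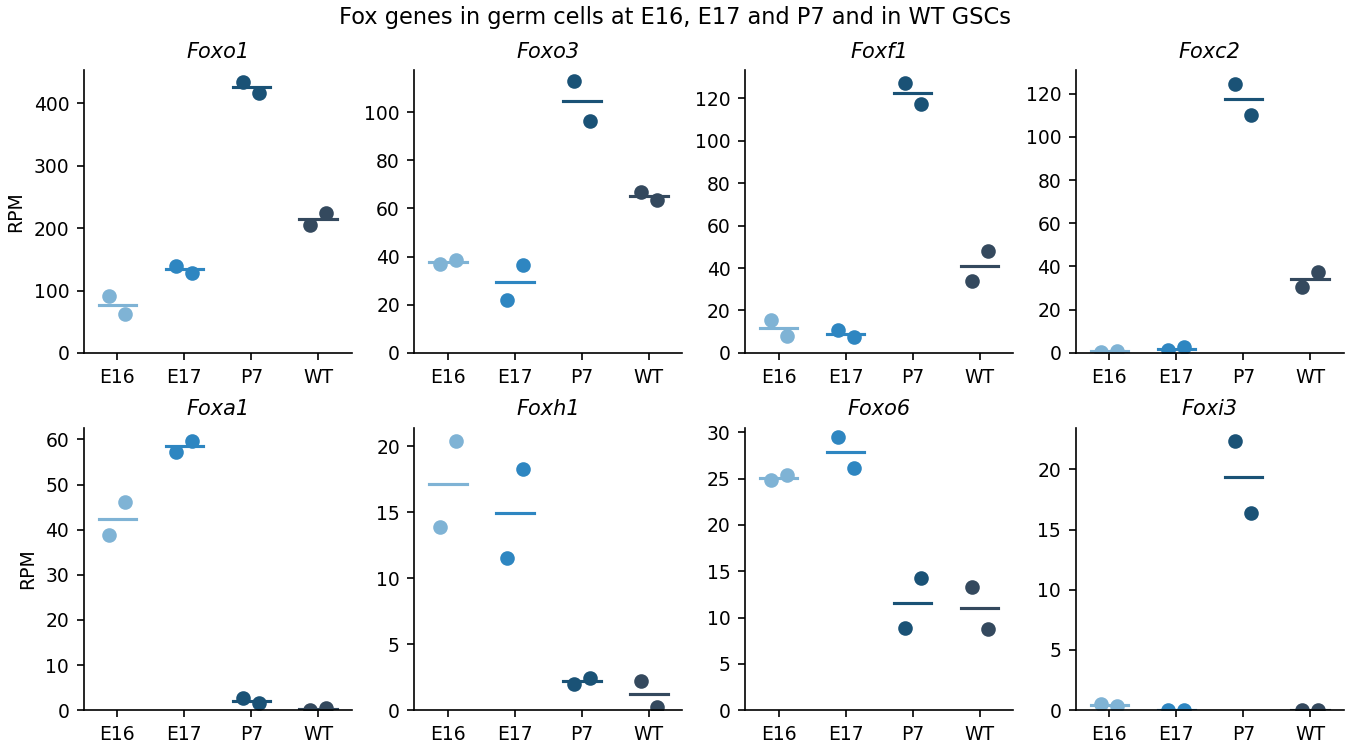
Level in RPM of 8 forkhead genes in testis germ cells at E16, E17 and P7 and in WT GSCs. Points are the 2 libraries of a group and lines their mean; Foxo1, Foxo3, Foxf1, Foxc2 and Foxi3 are highest at P7, Foxa1 and Foxh1 are at or below 2.63 RPM at P7 and in WT GSCs, and Foxo6 is higher in the 4 fetal libraries than in the others shown.

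The last comparisons set germ cells from testis against cultured WT GSCs, both against the same WT libraries. Culture, age, reporter genotype and preparation cannot be told apart in them, and P7 was deposited with its own gene list. P7 cells differed from WT GSCs in 16 of 28 tested forkhead genes, 13 higher and 3 lower, where 31% of all genes differed, 16% higher and 15% lower. The count was 8 with spike-in scaling, where 35.5% of all genes differed. It was also lower when any WT or P7 library was left out, as was the share of all genes. With spike-in scaling Foxo3, Foxj3 and Foxn3 lay just below 0, at -0.01, -0.02 and -0.05 (log2). Foxo1 had 434 and 417 RPM at P7 against 205 and 224 RPM in WT GSCs (log2 0.86 ± 0.12, SE, edgeR adjusted p 3.11e-07). Foxf1 was 1.44 ± 0.20 and Foxc2 1.65 ± 0.17 higher at P7 on the log2 scale. Foxi3, at 0 in WT GSCs, was at least 24.8-fold higher at P7. Foxp1 was 1.2 ± 0.20 and Foxr1 0.76 ± 0.21 higher on that scale. With spike-in scaling Foxo1, Foxp1 and Foxr1 lay at 0.31, 0.66 and 0.22 (log2). None of these passed under it (edgeR adjusted p 0.304, 0.0754 and 0.605), nor did Foxa1 (0.0591) or Foxp3 (0.128). Foxp3, the factor of regulatory T cells, had 5.92 and 7.73 RPM at P7 against 1.91 and 1.5 RPM in WT GSCs, and its locus overlaps Flicr and Ccdc22. Foxa2 went the other way, with 1 count over both P7 libraries and 42 counts over both WT GSC libraries, a ratio of WT to P7 of 34.3 (95% counting interval 5.83 to 1387). Foxj2 and Foxn2 were lower at P7 by 1.5 and 0.87 on the log2 scale. The Foxn2 call ended by DESeq2 (adjusted p 0.383), with library totals (0.0986), without WT replicate 2 (log2 fold change -0.55, adjusted p 0.352) and without P7 replicate 1 (0.0867) or 2 (0.172), and that of Foxj2 without P7 replicate 1 (0.103). The Foxr1 call ended without WT replicate 2 (0.0774) or P7 replicate 2 (0.11), and that of Foxp3 by DESeq2 (0.0529) and without WT replicate 1 (0.0674), WT replicate 2 (0.126) or P7 replicate 2 (0.136).

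Markers of other cells differed in the same comparison. Sertoli markers summed to 69.1 and 104 RPM at P7 and 33.2 and 36.6 RPM in WT GSCs, and fibroblast markers to 485 and 457 RPM at P7 and 342 and 354 RPM in WT GSCs. Endothelial markers summed to 38.8 and 38.0 RPM at P7 and 29.9 and 27.2 RPM in WT GSCs, and erythroid markers to 12.5 and 82.5 RPM at P7 and 0.272 and 0.249 RPM in WT GSCs. In fetal libraries Sertoli markers summed to 145 to 177 RPM, endothelial markers to 157 to 229 RPM and erythroid markers to 93.0 to 273 RPM. Their part in the forkhead values was not tested.

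Fetal cells, as the mean of E16 and E17, differed from WT GSCs in 21 of 28 tested genes, 11 higher and 10 lower. That share was close to the 74.2% of all genes that differed, of which 41.9% were higher and 32.3% lower. Foxa1 had 422 counts over the 4 fetal libraries and 2 over both WT GSC libraries, a ratio of 191 (95% counting interval 52.5 to 1582). Foxf2, Foxn4 and Foxi1 had no count in WT GSCs and were at least 10.9-fold, 9.61-fold and 7.47-fold higher in fetal cells. Foxh1 was higher by 3.59 ± 0.60 and Foxo6 by 1.13 ± 0.26 (log2, SE), and Foxe3, Foxp2, Foxd3 and Foxp3 by 3.05, 2.19, 2.1 and 1.60. The sizes depend on the WT library kept. Foxh1 kept its call, at 2.70 without WT replicate 2 and 5.66 without WT replicate 1. Foxp2 was 1.26 without WT replicate 1 and 6.25 without WT replicate 2, a value set against a library with no Foxp2 count. Foxe3, Foxp2 and Foxd3 did not pass by DESeq2 (adjusted p 0.0527, 0.0552 and 0.0711) or without WT replicate 1 (0.0811, 0.265 and 0.141), and Foxp3 did not pass without WT replicate 2 (0.102). Foxd3, a factor of neural crest and pluripotent cells, reached at most 3.98 RPM in any fetal library.

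Foxc2 was lower in fetal cells than in WT GSCs, at a log2 fold change of -4.84 ± 0.30 (SE, edgeR adjusted p 8.5e-17), and of -2.27 with spike-in scaling. The other 9 lower genes, Foxf1, Foxn3, Foxn2, Foxk2, Foxm1, Foxr1, Foxp1, Foxo1 and Foxo3, lay between -2.17 and -1.10. With spike-in scaling all 9 lay above 0, Foxf1 without a call (0.48, edgeR adjusted p 0.133). That scaling put the median of all genes at 2.87 (log2, 0.23 with the main scaling). As sums, the somatic markers named above were higher in fetal libraries here too. Sertoli markers summed to 145 to 177 RPM in fetal libraries and 33.2 to 36.6 RPM in WT GSCs, peritubular myoid markers to 123 to 167 RPM in fetal libraries and 5.98 to 9.53 RPM in WT GSCs, and erythroid markers to 93.0 to 273 RPM against 0.249 to 0.272 RPM in WT GSCs.

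Across the 6 groups, Foxf1 ordered as P7 above WT GSCs, and WT GSCs above the knockout and fetal groups, whose libraries overlapped between 7.33 and 15.4 RPM. Foxc2 ordered as P7, then KO2 and KO1 at 60.3 to 67.4 RPM, then WT, then fetal cells. Foxa2 was highest in KO1 and KO2, at 19.4 to 25.8 RPM, followed by WT GSCs and fetal cells, whose libraries overlapped between 3.98 and 8.37 RPM, and P7 was lowest. Foxo1 ordered as P7, WT GSCs, the knockout lines, E17 and E16, and KO1 and KO2 overlapped. These are orders of RPM. With spike-in scaling Foxo1 lay at -2.87 and Foxf1 at -0.80 in P7 against E17 (log2). In fetal cells against WT GSCs Foxo1 lay at 1.43, Foxf1 at 0.48 and Foxa2 at 2.53. The signs of Foxo1 and Foxf1 thus turned round in those pairs, for Foxf1 without a call (edgeR adjusted p 0.0875 and 0.133). Foxa2 had no call in fetal cells against WT GSCs with the main scaling. Of the 44 genes 12 overlap another annotated gene, among them Foxa1 (Ttc6), Foxh1 (Kifc2), Foxm1 (Tex52), Foxo3 (Gm38485) and Foxo6 (Gm52678), and since no strand setting is stated, reads of such pairs cannot be told apart.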

How the data were processed

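The submitters' processing notes name Salmon 1.4.0, HTSeq 0.9.1, TopHat2 2.1.1, cutadapt 1.18 and build GRCm38.p6, with no role for each. The authors deposited whole read counts per gene for each library, unpooled, and a scaled signal (reads per 1000000, spike-in, transgene and mitochondrial rows left out), which was checked against RPM computed here from the counts and not tested. Rows that name no gene (101 spike-in and transgene rows) were left out, of which the ERCC rows equalled 0.194% to 5.85% of each library.

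Counts were tested with edgeR 4.0.16 (quasi-likelihood, TMM, filterByExpr by group, adjusted p under 0.05 over all genes) in R 4.3.3. One fit held the GSC libraries, one the in vivo libraries, and one all 12, the last 2 over genes in both lists (31675 without blank cells). SE is that of the fit. The script was tested on simulated data.

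The forkhead genes and gene lists were chosen with earlier results of these data known. Genes past the threshold, those averaging 10 RPM in a group, and Foxo1, Foxa2 and Foxf1 are described; a few items that enter the counts are not reported here. List members named are the 3 largest called changes at 20 RPM or more, while the other called list members named were chosen after their values were seen. GSC WT replicates were numbered by their titles, which disagree with the names of the deposited tables.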

Additional observations from a re-analysis of the deposited data

How the results depend on the processing

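The KO counts of changed forkhead genes stayed within 1.5 times of the main count under every alternative run (other scalings, DESeq2, no low-count filter, replicate block, all 12 libraries, each library left out), at 6 to 8 genes when a library was left out for the mean of both lines, 5 to 7 for KO1 and 6 to 8 for KO2. Foxa2, Foxc2, Foxf1, Foxr1, Foxo3 and Foxo1 kept their call for the mean of both lines under all of them. Calls in single lines were less firm. In KO1 that of Foxo6 ended by DESeq2 (adjusted p 0.217), with ERCC totals (edgeR, 0.0753) and in the fit of all 12 libraries (edgeR, 0.0955). In KO2 those of Foxo6 and Foxm1 ended by DESeq2 (0.0547 and 0.321), and those of Foxo1 and Foxm1 with ERCC totals (edgeR, 0.0824 and 0.0663). For E17 against E16 the main fit gave 0 calls, where 6.6% of all genes passed. Library totals alone, no filter, the replicate block and the fit of all 12 libraries each gave 2. The shares of all genes were 10.7%, 5.29%, 8.89% and 11.1% in that order. ERCC totals gave 25, where 98.2% of all genes passed and their median lay at 3.02 (log2). The count also moved when a library was left out. For P7 against GSC WT, with 16, ERCC totals gave 8 and leaving out a library gave 9 to 11. The cause was not tested.

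Same-numbered replicates correlated at 0.004 to 0.071 in their deviations, which does not settle whether the numbers pair the samples. With the replicate block the share of all genes that passed rose in the comparisons among GSCs and in E17 against E16. It fell slightly in the other comparisons. With the replicate block the KO counts remained 8, 7 and 8, P7 against E17 gave 22, P7 against GSC WT 16 and fetal against GSC WT 21.

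Directions reversed mainly with ERCC totals. In P7 against E17 these gave -0.797 for Foxf1, -4.06 for Foxj3, -2.92 for Foxk2, -2.84 for Foxm1, -2.37 for Foxn3, -2.87 for Foxo1, -2.69 for Foxo3, -2.20 for Foxp1 and -2.18 for Foxr1 (log2). In P7 against GSC WT they gave -0.0197 for Foxj3, -0.0536 for Foxn3 and -0.014 for Foxo3. In fetal against GSC WT they gave 0.481 for Foxf1, 0.897 for Foxk2, 1.09 for Foxm1, 0.898 for Foxn2, 0.637 for Foxn3, 1.43 for Foxo1, 1.52 for Foxo3, 1.37 for Foxp1, 1.14 for Foxr1 and 2.53 for Foxa2, and in E17 against E16 2.35 for Foxf1. In KO1 against KO2 they gave -0.125 for Foxo1, against 0.05 in the main fit, and leaving out a library gave -0.0652 (without KO2 replicate 2) to 0.173, with no call either way. Foxa2 in fetal against GSC WT, also without a call in the main fit, was 0.118 with RLE, 0.0672 with library totals and 0.114 with DESeq2, and ran from -0.277 (without WT replicate 1) to 0.122 (without WT replicate 2) when a library was left out, with 0.0208 without E17 replicate 1. Library totals alone moved the median of all genes to 0.35 in E17 against E16 and to 0.38 in fetal against GSC WT. ERCC totals moved that median to 3.02 in E17 against E16, above the 2.35 of Foxf1. The cause of these reversals was not tested. With 2 libraries a group, genes under about 1 RPM are at the limit of counting.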
